A study of Mus musculus with 6 samples.

Results

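The mitochondrial respiratory chain was followed through its nuclear genes in healing blister epidermis of the newborn mouse. Members were taken by gene symbol, without use of any measured value: every symbol starting with Nduf, Uqcr, Cox4i, Cox5, Cox6, Cox7, Cox8 or Atp5, and Sdha, Sdhb, Sdhc, Sdhd and Cycs. This gave 93 of the 24014 genes listed, of which 87 passed the filter on low counts and were tested. They comprised 36 subunits of complex I (7 core, 29 accessory), 8 assembly factors of complex I, 4 subunits of complex II, 8 of complex III, cytochrome c, 18 of complex IV, the pair Ndufa4 and Ndufa4l2, and 16 genes of complex V or ATP synthase.

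The 3 blister libraries were made from epidermal cells of dorsal skin in the course of healing after a suction blister, which parts epidermis from dermis by negative pressure, and the 3 control libraries from epidermal cells of control skin, with totals of 7600567 to 15912863 counts per library. Skin was sampled at postnatal day 2, and the sources used here give neither strain nor genotype nor the time since blistering. The cells were freed with trypsin and filtered, and no sort is named, so other cells of the skin could be carried along. The sources used here do not give whether each library stands for a separate animal, and p-values measure only how far these 6 libraries scatter, which may be technical.

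As background, the respiratory chain passes electrons derived from NADH (complex I) or succinate (complex II) through ubiquinone to complex III, cytochrome c and complex IV, which reduces oxygen, and the proton gradient built on the way drives ATP synthase. Most subunits are encoded in the nucleus and a few in mitochondrial DNA. The mitochondrially encoded subunits are not analysed here. Keratinocytes are known to make much of their ATP by glycolysis, and hypoxia is known to exchange certain subunits for alternative isoforms.

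Transcription of many of these nuclear genes is known to depend on nuclear respiratory factor 1 (NRF1), on ETS factors such as GABP, and on estrogen-related receptors (ERR). Of the members, 74 had a promoter in the RefSeq table of GRCm38.p6, and the 250 bases before each annotated start were searched on both strands for the letters GCGCATGC (NRF1), CCGGAAGT (ETS), AAGGTCA (ERR) and ACGTG (the core bound by hypoxia-inducible factors). The NRF1 letters occurred in 10 of the 74 members (13.5%), against 2.56% of the 27025 genes with a promoter in the table. In 5 of the 10 they overlapped their own reverse complement, and letters of different motifs overlapped in 0 members. The ETS letters were found in 3 members (4.05%, against 3.23% of all genes), the ERR letters in 5 (6.76%, against 4.70%) and the hypoxia core in 15 (20.3%, against 18.5%). Of the members later called higher in blister, 13 had a promoter. Among these the NRF1 letters occurred in 1 (7.69%), the ETS letters in 0, the ERR letters in 1 (7.69%) and the hypoxia core in 4 (30.8%). A match is a match of letters, and binding was not measured.

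The stretches that follow show the NRF1 letters in the promoters of members of different complexes, in capitals and joined where the 2 strands overlap, and the ERR letters in Atp5g3, each with its RefSeq GRCm38.p6 position and strand. Cycs and Atp5g3 were called higher in blister, and the other members shown were not. The Cycs stretch lies at chr6:50566607-50566644 on the minus strand, that of Cox6a1 at chr5:115349096-115349135 (minus), that of Atp5k at chr5:108434425-108434464 (minus), that of Sdhb at chr4:140961202-140961239 (plus) and that of Atp5g3 at chr2:73911357-73911393 (minus).
Cycs: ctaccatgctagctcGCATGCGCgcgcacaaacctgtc
Cox6a1: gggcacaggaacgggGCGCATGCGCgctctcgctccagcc
Atp5k: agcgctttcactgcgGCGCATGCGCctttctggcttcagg
Sdhb: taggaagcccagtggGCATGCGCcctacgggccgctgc
Atp5g3: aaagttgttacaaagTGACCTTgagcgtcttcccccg

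Respiratory chain genes were moderately higher in blister than in control epidermis. The median log2 fold change over the 87 tested members was 0.49 (1.40-fold), while the median over all 14028 tested genes was 0.00, and 82 members had a positive fold change (94.3%, against 50.1% of all tested genes). With edgeR (quasi-likelihood test, Benjamini-Hochberg over all tested genes, threshold 0.05), 21 members rose and 0 fell. DESeq2 called 41 higher and 0 lower, and limma-voom 19 higher and 1 lower. The 21 are 24.1% of the tested members. Among all tested genes 21.3% were called in either direction and 9.74% were called higher, so the members' share lies near the share called in either direction and above the share called higher. At an unadjusted p under 0.05, edgeR gave 58 members that were higher and 1 that was lower (67.8% of the tested members, against 39.0% of all tested genes in either direction). Every blister library lay above every control library for 49 members, a pattern shown by 21.4% of all tested genes, and 1 member, Cox4i2, showed the reverse. In bulk RNA, a different share of a cell type and a different amount of RNA per cell cannot be told apart.

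The call of most members depended on the choice of libraries, while the direction of their median did not. The number of members called higher was 1, 6 and 54 without blister 1, 2 and 3, and 1, 1 and 0 without control 1, 2 and 3, while the median over members stayed between 0.38 and 0.61. The count over all tested genes moved too, with 534, 1032 and 1998 called higher without blister 1, 2 and 3, and 306, 476 and 541 without control 1, 2 and 3, in place of 1367. Of the 21 called members, 15 kept the call in 1 of these 6 fits, 4 in 2, Cycs in 3 and Sdhd in 4. Scaling by library size alone gave 1 call and a median of 0.23, with the median of all tested genes at -0.25. The members stood 0.48 above that median with library size alone and 0.49 above it with TMM scaling.

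**Figure D1:**
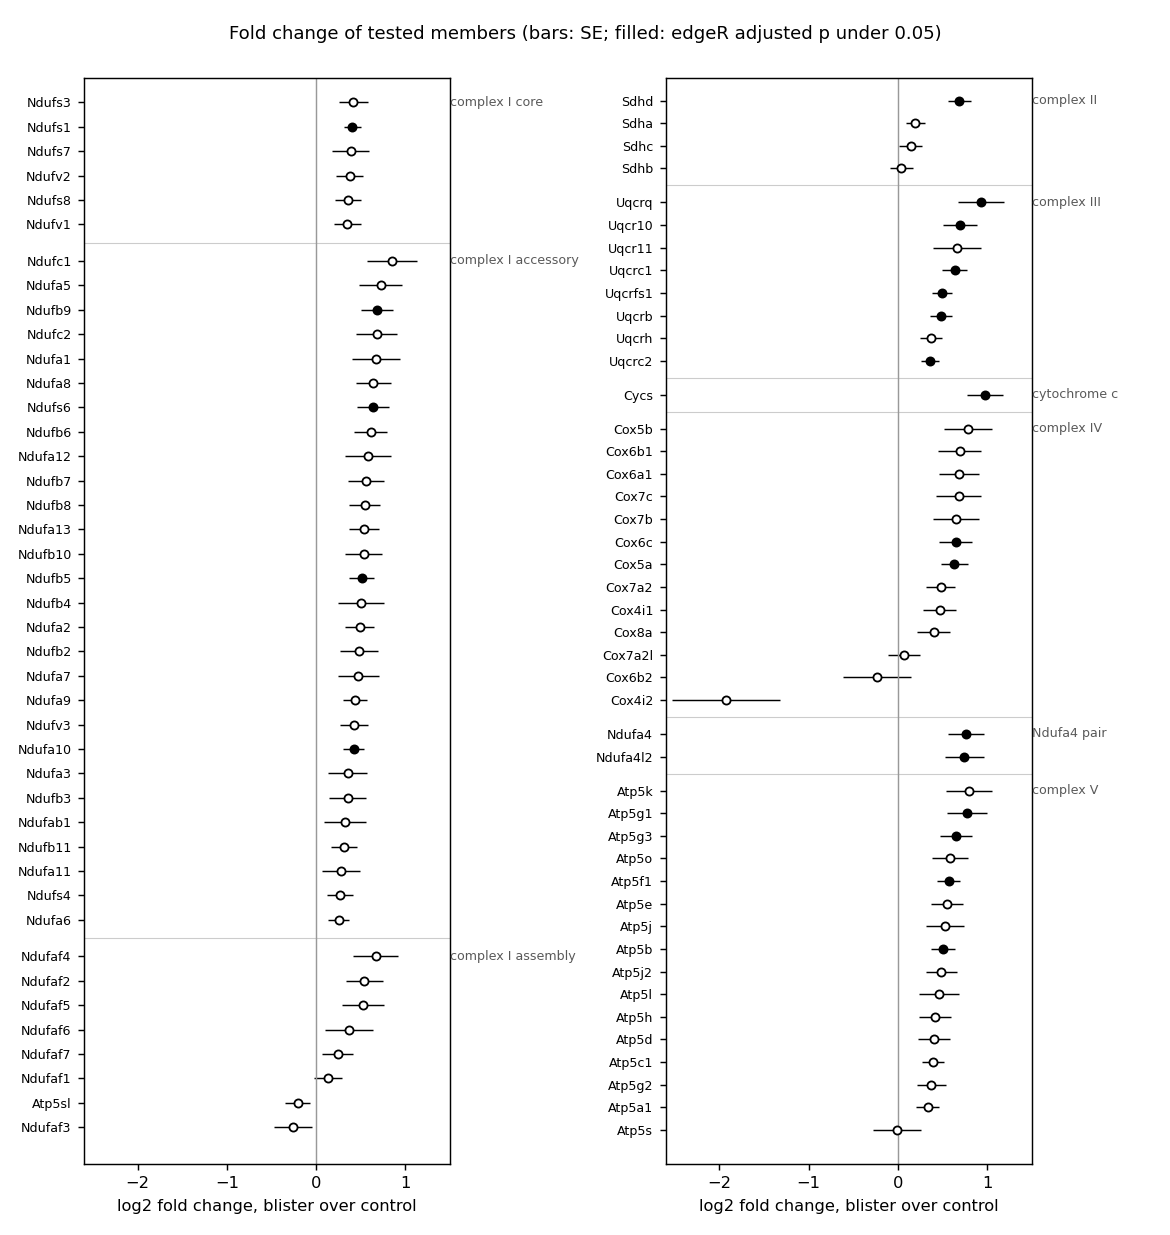
log2 fold change (blister over control, x axis) of the tested members, ordered within complexes down the page, with 1 member not drawn. Points are estimates from edgeR with SE as bars, filled where the adjusted p is under 0.05. The 21 filled points all lie to the right of 0, and Cox4i2, the member farthest to the left, is open.

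The libraries were not equally far apart. Summed over all members, levels were 13220, 13700 and 10770 CPM (counts scaled to a common library total with TMM factors) in blister 1, 2 and 3, and 9230, 9885 and 7772 CPM in control 1, 2 and 3. With TMM scaling the groups did not overlap, and blister 3 was the library nearest to the controls. Scaled by library total alone, the sums were 11100, 13090 and 10250 CPM in blister 1, 2 and 3, and 10250, 10470 and 8586 CPM in control 1, 2 and 3, and the groups overlapped. Within their groups, blister 3 was the lowest library for 78 of the 87 tested members and control 3 for 80. Other genes with short annotated exons shared this. Over the 417 tested genes under 1 kb, medians relative to the control mean were 0.31, 0.45 and 0.02 in blister 1, 2 and 3. They were 0.07, 0.07 and -0.14 in control 1, 2 and 3. Over the 11496 tested genes above 2 kb, blister 3 and control 3 had the highest medians of their groups, with all libraries between -0.07 and 0.04. The median member stood 0.55, 0.65 and 0.21 above the control mean on the log2 scale in blister 1, 2 and 3, and at 0.08, 0.16 and -0.23 in control 1, 2 and 3.

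**Figure D2:**
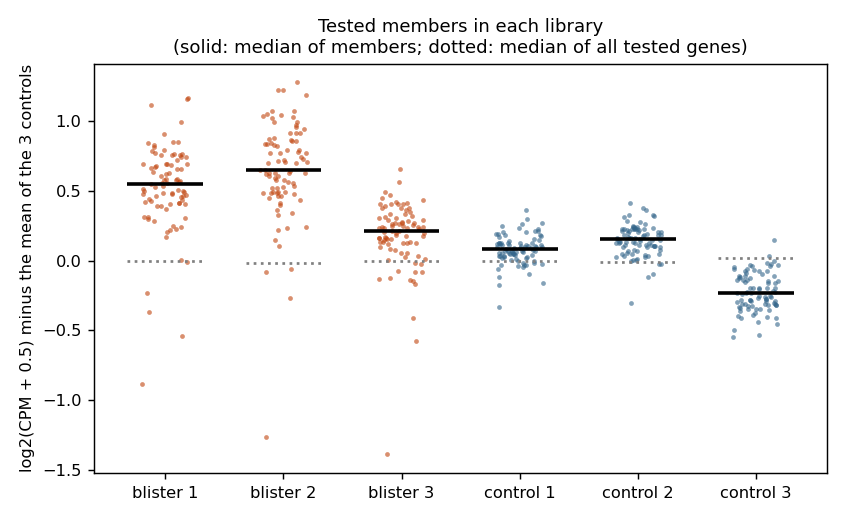
Each point is 1 tested member in 1 library, as log2(CPM + 0.5) minus the mean of that member in the 3 controls (y axis). Solid bars mark the median of the members and dotted bars the median of all tested genes. The members' median is 0.55, 0.65 and 0.21 in blister 1, 2 and 3 and -0.23 in control 3, while the dotted bars stay near 0 in each library.

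Markers of some other cell types differed between the groups, and some stood out in control 3. Control 3, the lowest library for most members, held more counts of skeletal muscle and dermal fibroblast markers than the other libraries. The 10 skeletal muscle markers summed to 9.82, 11.8 and 7.81 CPM in blister 1, 2 and 3, and to 9.51, 8.82 and 180 CPM in control 1, 2 and 3, and the 9 dermal fibroblast markers summed to 111, 852 and 207 CPM in blister 1, 2 and 3, and to 1023, 1212 and 6760 CPM in control 1, 2 and 3. In the blister group, blister 2, the highest library for 62 members, had the highest dermal sum, and blister 3, the lowest for 78, had the lowest muscle sum. Whether these markers bear on the order of the libraries was not tested. None of these 19 markers was without counts, 5 of the dermal ones fell, and 0 of the 3 muscle markers tested were called. Over all 14028 tested genes, 1367 were called higher and 1626 lower. The 9 keratinocyte markers summed to 107400 to 198400 CPM in blister libraries and to 64250 to 89630 CPM in controls. The 13 neutrophil markers summed to 314 to 1027 CPM in blister libraries and to 30.5 to 38.7 CPM in controls. Their largest parts were S100a9 and S100a8 in blister libraries (means of 250 and 162 CPM) and Il1r2 in controls (mean of 23.15 CPM). Of both lists, 5 of 9 keratinocyte markers and 9 of 9 tested neutrophil markers rose. The 12 hair follicle markers ran the other way, with 306 to 966 CPM in blister libraries and 2539 to 4424 CPM in controls, and 10 fell. The 7 melanocyte markers summed to 340 to 554 CPM in blister libraries and to 850 to 1026 CPM in controls, and 5 fell. The 7 endothelial markers summed to 6.42 to 15.1 CPM in blister libraries and to 12.4, 18.4 and 81.6 CPM in control 1, 2 and 3, and 1 of 6 tested fell. Macrophage and Langerhans cell markers summed to 122 to 260 CPM in blister libraries and 145 to 213.5 CPM in controls, and 1 rose and 1 fell. Adipocyte markers summed to 30.5 to 106 CPM in blister libraries and 80.6 to 118 CPM in controls, with 0 calls. Erythroid markers summed to 7.90 to 20.5 CPM in blister libraries and 10.8 to 11.5 CPM in controls, with 0 calls. The median of the members was 0.38 without control 3, with 0 calls, and 0.34 with a dermal fibroblast covariate (their marker level), also with 0 calls, where 150 genes were called in all. Every control library had a higher dermal sum than every blister library, so this covariate and the group cannot be told apart here. The part of the dermal and of the other markers in the members' levels was not tested.

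Complex I, the entry point of NADH electrons and the largest complex of the chain, had 5 calls among 35 tested subunits. This was 14.3%, against 9.74% of all tested genes called higher. All 35 had a positive fold change, with a median of 0.47 and a range of 0.25 (Ndufa6) to 0.85 (Ndufc1). Summed over its subunits, complex I stood at 3148, 3412 and 2451 CPM in the blister group, against 2286, 2381 and 1852 CPM in the controls. Blister 3 exceeded control 2 by little, and scaled by library total alone (2644, 3261 and 2334 CPM in blister 1, 2 and 3, against 2538, 2522 and 2046 CPM in control 1, 2 and 3) the groups overlapped.

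Among the 7 core subunits, which catalyse the reaction, Ndufs1 was the only call (14.3%, against 9.74% of all tested genes called higher). It encodes the largest iron-sulfur subunit and stood at 132, 122 and 123 CPM in the blister group, against 97.6, 96.8 and 89.9 CPM in the controls, a log2 fold change of 0.41 ± 0.10 (SE; adjusted p = 0.0300). The 3 libraries of each group lay close together.

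The accessory subunits, which surround the core, ran from 0.25 to 0.85 on the log2 scale of fold change. Of 28 tested, 4 rose (14.3%, against 9.74% of all tested genes): Ndufb9, Ndufb5, Ndufa10 and Ndufs6. Ndufb9, in the membrane arm, averaged 171 ± 26.0 CPM in the blister group, against 107 ± 20.1 CPM in the controls (SD, n = 3 each), a log2 fold change of 0.68 ± 0.18 (SE; adjusted p = 0.0360). Ndufb5, also in the membrane arm, was at 101, 94.8 and 76.6 CPM in the blister group, against 68.7, 65.6 and 56.9 CPM in the controls (adjusted p = 0.0404). Ndufc1 had the largest fold change of the complex without passing, at 75.2, 68.0 and 43.3 CPM in the blister group, against 38.1, 42.9 and 22.6 CPM in the controls (adjusted p = 0.0686). Its lowest blister library was barely above its highest control. The accessory subunit gene Ndufs5 had 1 count in all 6 libraries. Of its 50-base windows, 21.7% also occur in another annotated gene, and the sources used here do not give how reads that fit several places were handled.

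Assembly factors of complex I, which help to build the enzyme and leave it afterwards, were less uniform. In edgeR 0 of the 8 passed, 2 had an unadjusted p under 0.05, DESeq2 and limma-voom called 0, and their fold changes ran from -0.26 (Ndufaf3) to 0.66 (Ndufaf4) on the log2 scale. Ndufaf2 was at 23.2, 26.4 and 18.0 CPM in the blister group, against 16.4, 17.6 and 12.5 CPM in the controls (adjusted p = 0.0937). Ndufaf4 was at 35.2, 45.2 and 24.5 CPM in the blister group, against 26.3, 17.5 and 22.2 CPM in the controls, where blister 3 lay within the control range (adjusted p = 0.0902). Whether assembly factors and subunits differ in their response was not tested.

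Complex II, succinate dehydrogenase, which is also an enzyme of the TCA cycle, held 1 subunit that rose and 3 that did not pass. Sdhd, a membrane anchor, stood at 121, 148 and 110.5 CPM in the blister group, against 76.3, 82.7 and 76.1 CPM in the controls, a log2 fold change of 0.69 ± 0.13 (SE; adjusted p = 0.0160). Each blister library was above each control. Sdha, the flavoprotein, was at 225, 204 and 205 CPM in the blister group, against 186, 187 and 180 CPM in the controls (adjusted p = 0.208, with 0.20 ± 0.11 (SE) as log2 fold change). Sdhb, the iron-sulfur subunit, had a log2 fold change of 0.04 ± 0.13 (SE), and the other anchor gene Sdhc one of 0.14 ± 0.13 (SE). With library size alone the fold changes of Sdha, Sdhb and Sdhc were negative.

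Complex III, which hands electrons from ubiquinol to cytochrome c, had calls for 6 of its 8 members. Uqcrc1, a core protein of the complex and its member with the most counts, stood at 538, 525 and 416 CPM in the blister group, against 314, 329 and 310 CPM in the controls, a log2 fold change of 0.64 ± 0.14 (SE; adjusted p = 0.0216). Uqcrfs1, the Rieske iron-sulfur protein, was at 160, 157 and 145 CPM in the blister group, against 115, 113 and 101 CPM in the controls, a log2 fold change of 0.49 ± 0.11 (SE; adjusted p = 0.0215). For both genes each blister library was above each control. The small subunits Uqcrb, Uqcr10 and Uqcrq and the core protein Uqcrc2 rose too, by 0.48, 0.70, 0.93 and 0.36 on the log2 scale. Of the 50-base windows of Uqcrb, 25.4% also occur in other annotated genes. Uqcrh and Uqcr11, both small subunits, did not pass (adjusted p = 0.0697 and 0.113). Cyc1, the cytochrome c1 gene of the complex, which the symbols used here do not cover and which is named after its values were seen, was called as well, with a mean of 244 ± 30.3 CPM in the blister group, against 171 ± 22.8 CPM in the controls (SD, n = 3 each; adjusted p = 0.0479).

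Cytochrome c, the soluble carrier between complexes III and IV and a trigger of apoptosis when released into the cytosol, had the largest rise of all members. Cycs stood at 43.1, 50.8 and 34.1 CPM in the blister group, against 25.9, 22.1 and 17.4 CPM in the controls, 1.96-fold higher, with a log2 fold change of 0.97 ± 0.20 (SE; adjusted p = 0.0191). The lowest blister library was above the highest control. Of its 50-base windows, 25.9% also occur in other annotated genes, so part of its reads may be shared with copies.

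**Figure D3:**
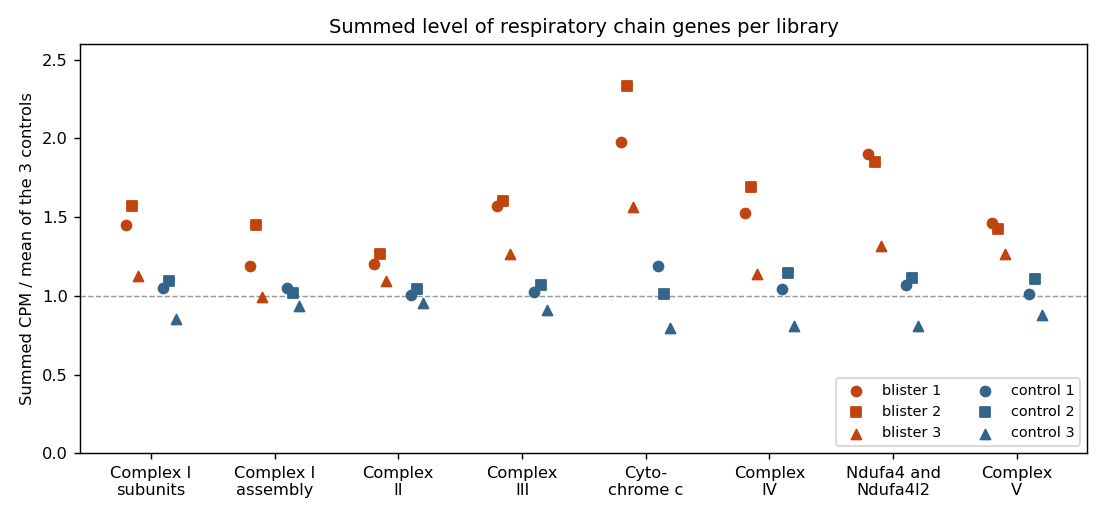
Summed CPM (TMM scaling) of each complex per library (y axis), divided by the mean of the 3 controls, with blister libraries left of controls and marker shape giving the replicate. Blister libraries lie above each control except for the assembly factors and complex IV, where blister 3 overlaps the controls, and cytochrome c is the farthest from the dashed line at 1; scaled by library total alone, complexes I and II overlap as well, and the complex II ratio is 0.996.

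Complex IV, cytochrome c oxidase, was represented by 18 genes of its nuclear subunits, many of which come as a common isoform and a tissue-specific one. Of 13 tested members 2 rose (15.4%, against 9.74% of all tested genes) and 0 fell, and the median log2 fold change was 0.63. Cox5a stood at 186, 180 and 145 CPM in the blister group, against 119, 118 and 92.6 CPM in the controls, a log2 fold change of 0.63 ± 0.15 (SE; adjusted p = 0.0277). Cox6c was at 165, 174 and 124 CPM in the blister group, against 111, 108 and 77.1 CPM in the controls, a log2 fold change of 0.65 ± 0.19 (SE; adjusted p = 0.0470). The groups of both genes did not overlap. The sum over the complex was 2259, 2508 and 1690 CPM in the blister group, against 1552, 1696 and 1198 CPM in the controls, so blister 3 lay just below control 2.

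The common isoforms of complex IV had positive fold changes without passing. Cox4i1 was at 393, 502 and 327 CPM in the blister group, against 299, 329 and 257 CPM in the controls (adjusted p = 0.106, with 0.47 ± 0.18 (SE) as log2 fold change). Cox6a1, Cox6b1, Cox7a2 and Cox8a had log2 fold changes of 0.68, 0.69, 0.48 and 0.40, with adjusted p of 0.0694, 0.0782, 0.0708 and 0.158. Cox7a2l, a relative of Cox7a2 that joins complexes III and IV in supercomplexes, averaged 137 ± 15.1 CPM in the blister group, against 130.5 ± 31.8 CPM in the controls (SD, n = 3 each), a log2 fold change of 0.07 ± 0.18 (SE). Its direction turned in 3 of 6 fits with 1 library removed, with library size alone and with the dermal covariate.

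The tissue-specific isoforms were rare or near absent. Cox4i2, an isoform known from lung and from hypoxic cells, had 6, 1 and 1 counts in blister libraries and 13, 13 and 21 counts in controls. This made 0.551, 0.138 and 0.085 CPM in the blister group, against 0.997, 0.910 and 1.20 CPM in the controls, with no overlap. The log2 fold change of -1.93 ± 0.60 (SE) did not pass (adjusted p = 0.0578), and limma-voom (adjusted p = 0.0380), library size alone (adjusted p = 0.0313) and the fit without blister 1 (adjusted p = 0.0378) called it lower. Over all alternatives its adjusted p ran from 0.0313 to 0.349. Cox4i2 is also known as a gene of pericytes. Of the 11 pericyte and vascular smooth muscle markers 7 were tested and 3 fell, where 1626 of all 14028 tested genes fell. Their sums were 224 to 369 CPM in blister libraries and 346 to 501 CPM in controls, mostly from Notch3 and Mcam. Notch3, the only tested marker with a positive fold change, did not pass. It was at 221.5, 123.8 and 245.5 CPM in blister 1, 2 and 3, against 182.3, 184.5 and 175.8 CPM in control 1, 2 and 3. Mcam fell, from a mean of 143.6 CPM in controls to 75.2 CPM in blister libraries. Pdgfrb, which fell, was at 0.367, 3.17 and 1.53 CPM in blister 1, 2 and 3, against 7.67, 8.40 and 26.9 CPM in control 1, 2 and 3. Kcnj8, which did not pass, was at 15.1 CPM in control 3 and at most 3.85 CPM in the other libraries, and Rgs5 and Higd1b were under 2 CPM in each library. Their part in the Cox4i2 values was not tested.

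Isoforms of heart and skeletal muscle were below the filter on low counts and were not tested in the main fit. Cox6a2 had 12 counts over the blister libraries and 18 over the controls, and Cox7a1 had 19 over the blister libraries and 18 over the controls. Cox8b had 0 counts over the blister libraries and 0, 1 and 9 in control 1, 2 and 3. Most of its few counts thus lay in the library with the high skeletal muscle markers, unlike those of Cox6a2 and Cox7a1. Cox7b2 and Cox8c had 2 counts each in all. Cox6b2, known from testis, was tested at 3.95, 11.0 and 5.01 CPM in the blister group, against 6.83, 8.68 and 7.68 CPM in the controls, with a spread in the blister group that covered the control range (adjusted p = 0.678).

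Ndufa4 and its paralog Ndufa4l2 both rose, unlike the pair Cox4i1 and Cox4i2, whose fold changes had opposite signs. Ndufa4 was first counted with complex I and was later found in complex IV, and Ndufa4l2 is known as a target of hypoxia-inducible factor that lowers complex I activity. Ndufa4 stood at 202, 251 and 162 CPM in the blister group, against 129, 137 and 95.2 CPM in the controls, a log2 fold change of 0.77 ± 0.20 (SE; adjusted p = 0.0359). Ndufa4l2 stood at 188, 128 and 108 CPM in the blister group, against 90.8, 91.5 and 71.3 CPM in the controls, a log2 fold change of 0.74 ± 0.22 (SE; adjusted p = 0.0475). In both genes each blister library was above each control, and for Ndufa4l2 blister 1 stood apart at the top. The log2 fold change of Ndufa4l2 was 0.49 without blister 1 (adjusted p = 0.112), 0.47 with library size alone (adjusted p = 0.0951) and 0.21 with the dermal fibroblast covariate (adjusted p = 0.755), and its adjusted p over all alternatives ran from 0.00931 to 0.755. Per kb of exon (GENCODE M21, another annotation than the one used for counting) the level of Ndufa4l2 was 129 CPM in the blister group, against 77.2 CPM in the controls, and that of Ndufa4 was 148 CPM in the blister group, against 87.3 CPM in the controls. Cox4i1 stood at 263 CPM per kb in blister libraries and 190 CPM per kb in controls, and Cox4i2 at 0.327 CPM per kb in blister libraries and 1.31 CPM per kb in controls.

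**Figure D4:**
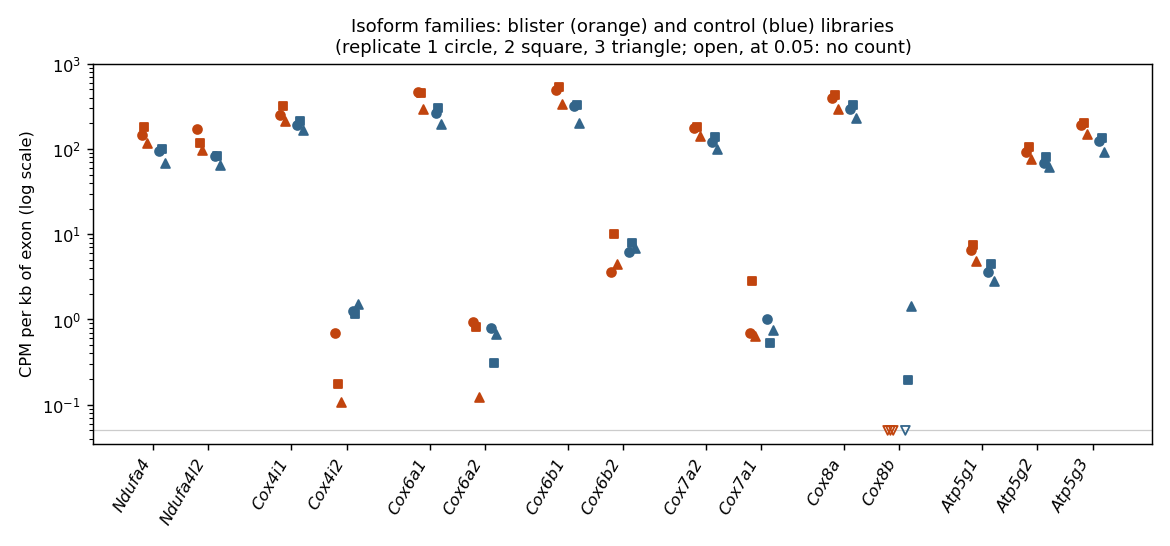
Level in CPM per kb of exon (log scale) of isoform families in each library, with blister libraries left of controls within each gene. Ndufa4l2 lies close to Ndufa4, while Cox4i2, Cox6a2, Cox7a1 and Cox8b lie far under their common isoforms. Cox8b had no count in the 3 blister libraries and in control 1, drawn as open markers at 0.05.

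Complex V, the ATP synthase, held 4 calls among 16 tested genes. Atp5b, the catalytic beta subunit and the member with the most counts of the whole set, stood at 1654, 1550 and 1535 CPM in the blister group, against 1104, 1235 and 997 CPM in the controls, a log2 fold change of 0.51 ± 0.13 (SE; adjusted p = 0.0366). Atp5f1, a subunit of the peripheral stalk, was at 212, 202 and 170 CPM in the blister group, against 139, 134 and 120 CPM in the controls, a log2 fold change of 0.57 ± 0.13 (SE; adjusted p = 0.0228). Both genes separated the groups. Atp5a1, the alpha subunit that alternates with beta in the head of the enzyme, averaged 1132 ± 86.4 CPM in the blister group, against 899 ± 59.1 CPM in the controls (SD, n = 3 each) and did not pass (adjusted p = 0.0997, with 0.33 ± 0.13 (SE) as log2 fold change). Atp5s, a coupling factor, had a log2 fold change of -0.01 ± 0.27 (SE).

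The subunit c of the proton-driven ring is encoded by 3 genes whose mature proteins are known to be identical. Of these, Atp5g1 and Atp5g3 rose. Atp5g3 was at 419.5, 444 and 331 CPM in the blister group, against 269.6, 291 and 200.3 CPM in the controls, a log2 fold change of 0.65 ± 0.18 (SE; adjusted p = 0.0437). Atp5g1, known as the copy that follows mitochondrial demand, was at 32.2, 36.6 and 23.7 CPM in the blister group, against 18.0, 22.3 and 13.8 CPM in the controls, a log2 fold change of 0.77 ± 0.23 (SE; adjusted p = 0.0494). Atp5g2 was at 155, 175 and 128 CPM in the blister group, against 116, 136 and 102 CPM in the controls, where blister 3 lay under control 2 (adjusted p = 0.126). Of its 50-base windows, 38.3% also occur in other annotated genes, so its level carries that uncertainty.

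Members had a median exon length of 1.77 kb, against 4.34 kb over all tested genes. This length joins all annotated exons of a symbol and can exceed that of the transcripts present. The classes below are therefore not classes of transcript length. The median fold change of genes with a short exon length was above that of genes with a long one. Over all 417 tested genes under 1 kb the median log2 fold change was 0.26, and for the 17 members in that class it was 0.63. Over the 11496 tested genes over 2 kb it was -0.03, and for the 35 members in that class it was 0.46, with 12 calls. The members' median was above that of all tested genes in each of these classes of joined exon length. Whether this holds at like transcript length was not tested.

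Other nuclear genes of the mitochondrion also had positive medians. Among 77 tested genes of the mitochondrial ribosome 13 rose and 0 fell, and 77 had a positive fold change (61 with library size alone), with a median of 0.43. Mrpl30 averaged 65.1 ± 7.47 CPM in the blister group, against 43.2 ± 3.88 CPM in the controls (SD, n = 3 each; adjusted p = 0.0216), and Mrps25 averaged 45.8 ± 8.30 CPM in the blister group, against 27.8 ± 3.50 CPM in the controls (SD, n = 3 each; adjusted p = 0.0269). Of 17 genes of the TCA cycle and pyruvate dehydrogenase 4 rose and 0 fell, with a median of 0.28, among them Idh3a and Suclg2, catalytic subunits of isocitrate dehydrogenase and succinyl-CoA ligase (log2 fold changes of 0.46 and 0.45). Of 31 tested assembly factors outside the symbols used here 4 rose and 0 fell, with a median of 0.31, Coa5 and Coa7 among them. Of 16 tested carriers and further chain genes 5 rose and 0 fell, with a median of 0.41, including the phosphate carrier Slc25a3 (0.62) and the outer membrane channel Vdac1 (0.58). Called higher were 16.9% of the mitochondrial ribosome, 23.5% of the TCA list, 12.9% of the assembly factors and 31.2% of the carrier list. Among all tested genes 9.74% were called higher, a share near that of the assembly factors. None of these 141 tested genes was called without control 1, control 2, control 3 or blister 1.

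Regulators of mitochondrial gene expression had a median near 0. Of 17 tested biogenesis regulators 1 rose (5.88%, against 9.74% of all tested genes) and 0 fell. Their median of 0.06 turned its sign without blister 2 and with library size alone. The gene that rose was Esrra, which encodes the estrogen-related receptor alpha, at 82.7, 64.2 and 64.1 CPM in the blister group, against 46.0, 53.1 and 43.3 CPM in the controls (adjusted p = 0.0335, with 0.57 ± 0.15 (SE) as log2 fold change). Yy1, a zinc finger factor that binds many mitochondrial promoters, did not pass (adjusted p = 0.102, with 0.25 ± 0.10 (SE) as log2 fold change). Nrf1, the gene of NRF1, Tfam, that of a packaging factor of mitochondrial DNA, and the coactivator gene Ppargc1a are named after their values were seen. Nrf1 averaged 45.4 ± 2.68 CPM in the blister group, against 45.9 ± 4.02 CPM in the controls (SD, n = 3 each). Tfam averaged 43.9 ± 1.02 CPM in the blister group, against 44.0 ± 1.32 CPM in the controls (SD, n = 3 each). Ppargc1a averaged 0.704 ± 0.349 CPM in the blister group, against 1.38 ± 0.412 CPM in the controls (SD, n = 3 each; adjusted p = 0.172). Of 7 genes through which hypoxia-inducible factor is known to act on mitochondria 3 rose (42.9%, against 9.74% of all tested genes) and 0 fell. They included Pdk1, a kinase that shuts off pyruvate dehydrogenase, at 93.3, 107 and 85.4 CPM in the blister group, against 66.2, 58.5 and 65.0 CPM in the controls (adjusted p = 0.0188), and Higd1a, a small protein of the inner membrane that binds respiratory complexes, at 221, 178 and 131 CPM in the blister group, against 108, 114 and 87.8 CPM in the controls (adjusted p = 0.0342). Each blister library was above each control for both genes. Neither the 7 genes nor the 17 regulators held a gene called higher without blister 1, control 1, control 2 or control 3, with library size alone or with the dermal fibroblast covariate.

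**Figure D5:**
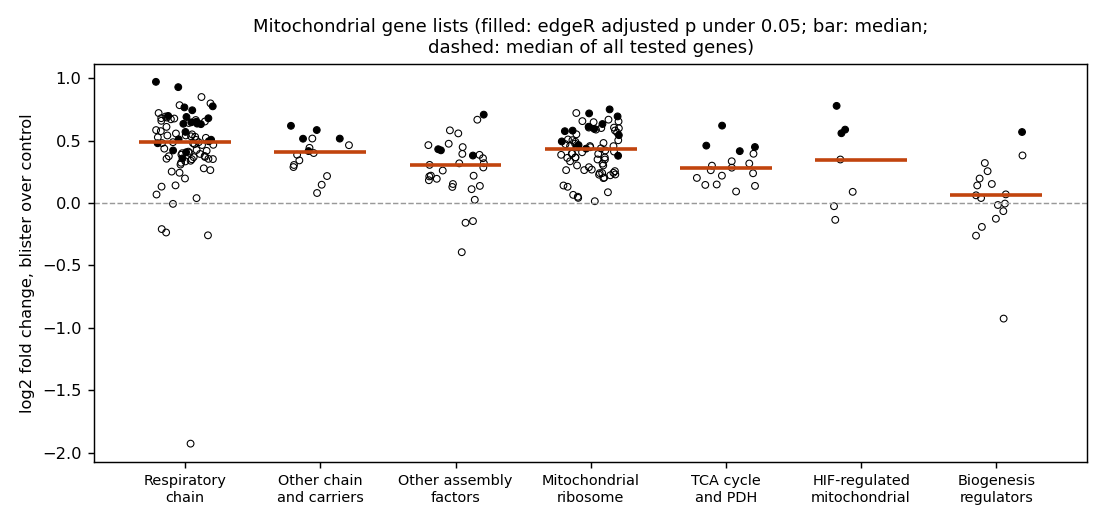
log2 fold change (blister over control, y axis) of each tested gene of the respiratory chain and of 6 other mitochondrial lists, filled where the adjusted p is under 0.05, with medians as bars. The medians run between 0.28 and 0.49, except for the biogenesis regulators at 0.06.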

How the data were processed

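RNA of 6 libraries (3 blister, 3 control) was measured by sequencing after oligo-dT purification and a TruSeq preparation, per the labels' protocols. The deposited values are raw read counts per gene symbol, made by the authors with HISAT2 2.0.0 and featureCounts, on builds named as NCBIM37 and mm9, per the submitters' processing notes (the featureCounts version is not stated there). Totals ran from 7600567 to 15912863 counts per library. Of 24014 symbols, 3759 were at 0 counts throughout. The sources used here do not give the strand setting, so overlapping and antisense genes cannot be told apart.

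Genes were tested with edgeR 4.0.16 in R 4.3.3: TMM scaling, filterByExpr by group (minimum count 10, minimum total 15), the group as the single term, quasi-likelihood F-tests, and Benjamini-Hochberg adjustment over the 14028 genes kept, two-sided, with a threshold of 0.05. CPM are scaled by library total and TMM factor. The SE of a log2 fold change is its size divided by the square root of F. Intervals of counts are not given, since precision is judged by the spread between libraries.

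The members and lists were chosen with earlier results of these data known, so no p is given for a list. Named members are the isoform families, the 2 smallest p and the highest mean CPM of each complex, and any called member with a log2 fold change of at least 1 in size, which gave 31. Each further list is named by its 2 smallest p, and other genes were chosen after their values were seen. Exon lengths and shared 50-base windows come from GENCODE M21, where 92 members were found by symbol. An exon length joins all annotated exons of a symbol. Promoters are RefSeq's on GRCm38.p6. The values of 1 tested member, which was not called, are not reported here.

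No 2 libraries of a group were copies. Squared differences of their counts, averaged over genes, were at least 14.2 times those of sampling noise (chi-square per degree of freedom). The alternatives were other scalings and filters, a replicate block, covariates (Xist, dermal fibroblast markers), leaving out libraries or the 50 most abundant genes, robust edgeR, DESeq2 1.42.0 and limma-voom (limma 3.58.1). Leaving out blister 3 and control 3 together was added after the data were seen. The fit was tested on simulated data.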

Additional observations from a re-analysis of the deposited data

How the results depend on the processing

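The direction of the median over tested members held in each of the 19 alternatives, while the number of calls did not. In place of 21 members called higher, upper-quartile scaling gave 7, library size alone 1 (with a median of 0.231), the Xist covariate 5, the dermal fibroblast covariate 0, DESeq2 41, and leaving out blister 3 and control 3 together 42. With the replicate number as a block the count was 49. Whether the numbers pair the libraries is not known here. Over all tested genes, deviations from the group means of same-numbered libraries correlated at 0.21, -0.26 and 0.01 for numbers 1, 2 and 3. Not every library correlated best with its own number. Among the 87 tested members the order was shared. Number 2 was the highest library for 62 in blister and 61 in control, and number 3 the lowest for 78 and 80. Leaving out 1 library gave 0 (without control 3) to 54 (without blister 3) members called higher and a median of 0.375 to 0.606. In place of 0 members called lower, library size alone and limma-voom each gave 1, and fits without 1 library gave 0 to 1, in each case Cox4i2. The cause of these changes was not tested.

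Among the 28 tested members that are named, 530 comparisons with an alternative left 376 unchanged, lost the call in 123, gained it in 23 and turned the sign in 8. Cox4i2 was below the stricter filter, and Atp5b was among the 50 most abundant genes, so those settings gave them no value. The signs that turned belonged to Cox7a2l (-0.186 with library size alone, -0.256 with the dermal covariate, and -0.0568 to 0.286 with 1 library left out), Sdha (-0.0608 with library size alone) and Cox6b2 (0.46 with the dermal covariate, and -0.774 to 0.0477 with 1 library left out). Robust edgeR, median-of-ratios scaling, both filters and leaving out the 50 most abundant genes gave 16 to 21 calls. The filter of the main fit left out the members with under 40 counts over all libraries, while the fit without a filter tested 93 members.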
